A study of Homo sapiens with 8 samples.

Results

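Epithelial and mesenchymal state genes were followed through long-term culture of H9 (WA09), an established human embryonic stem cell (hESC) line. They comprised 10 genes chosen by symbol: the epithelial adhesion genes CDH1, EPCAM and CLDN6, the mesenchymal genes CDH2, VIM and FN1, and the transcription factors ZEB1, ZEB2, SNAI1 and SNAI2. Each symbol matched 1 Ensembl identifier among the 60675 genes of the files, and all 10 were among the 19499 genes with enough counts to be tested. RNA was sequenced from H9 cells labelled passage 40s (P1 hESCs), 100s (P2), 200s (P3) and 300s (P4), with 2 samples each and 8 in all. The 4 groups shared feeder-free culture on Matrigel in mTeSR1 medium and dispase passaging, and received no other agent. P1 and P2 hESCs are called early and P3 and P4 hESCs late below. Each passage range stands for 1 culture of 1 line, so passage number and the history of a culture cannot be told apart. P3 and P4 hESCs are also described as carrying a copy number variation at a locus on the long arm of chromosome 20. It cannot be told apart from passage in these samples. SNAI1 lies on the same chromosome but is not among the genes that the text of the paper names at that locus. Copy number was not analysed here. The labels do not say whether the 2 samples of a line came from separate cultures, so the p-values measure only the spread between these samples.

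Epithelial cells are held together by E-cadherin junctions and tight junctions, whereas mesenchymal cells carry N-cadherin, vimentin filaments and a fibronectin matrix. In an epithelial-mesenchymal transition, zinc finger factors of the SNAI and ZEB families bind E-box sequences and repress CDH1 and other epithelial genes, and the microRNAs of the miR-200 family in turn repress ZEB1 and ZEB2. hESCs grow as epithelial colonies, and they lose CDH1 and gain VIM, SNAI1 or SNAI2 when they leave pluripotency toward mesoderm.

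The samples held 26874899 to 38095600 expected counts. Mitochondrial genes took 17.2% to 18.5% of the counts in P1-2, P3-1 and P4-1, and 5.89% to 9.84% in the other 5 samples, so libraries of the same line differed. All 9 pluripotent stem cell markers were expressed, with a summed level of 2792 to 4307 TPM (the RSEM transcript abundance of a gene, which is scaled for its length) in the early samples and 3043 to 4591 TPM in the late ones. The lowest sums were those of P1-2, P3-1 and P4-1, at 2792, 3043 and 3212 TPM, and the other 5 samples lay at 3860 to 4591 TPM. Among the 9 fibroblast markers COL3A1 and LUM had at most 3 counts in every sample, while the summed level of the list was 150 to 233 TPM early and 93.1 to 134 TPM late. Most of that sum came from COL1A1 (92.8 to 150 TPM early, 51.3 to 64.1 late) and COL1A2 (47.8 to 73.5 and 32.2 to 65.15). Of the 5 fibroblast markers tested between late and early hESCs, 2 lay above 0 in log2 fold change and 3 below. Summed over 4 markers of stratified epithelium the level was at most 0.17 TPM, and over 7 mesendoderm markers it was at most 7.89 TPM. The 5 neuroectoderm markers summed to 118 to 162 TPM early and 119 to 161 TPM late, and the 5 trophoblast markers to 11.9 to 18.4 and 5.37 to 11.9 TPM. Nearly all of the neuroectoderm sum came from TUBB3 (115 to 160 TPM early, 116 to 158 late). DCX was at most 3.15 TPM, and PAX6, SOX1 and NEUROG2 were at most 0.43 TPM. Most of the trophoblast sum came from KRT7 (10.02 to 14.3 TPM early, 3.77 to 11.64 late).

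The question put to the 10 genes was whether the late hESCs differed from the early ones. A call required a false discovery rate (FDR) under 0.01 in edgeR's quasi-likelihood test and a log2 fold change beyond 1 in either direction. None of the 10 was called between P3 and P4 and P1 and P2, against 2.2% of all genes tested and 1.14% called lower. DESeq2 and limma called none of them either. At an unadjusted p under 0.05 edgeR counted 4 of the 10, beside 25.5% of all genes. With an FDR under 0.05 and no fold minimum, 3 of the 10 passed (VIM, SNAI1 and CDH2, each lower in the late hESCs), against 7.54% of all genes. The median log2 fold change of the 10 was -0.45, with 7 below 0 and 3 above, beside 0.01 over all genes tested.

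**Figure D1:**
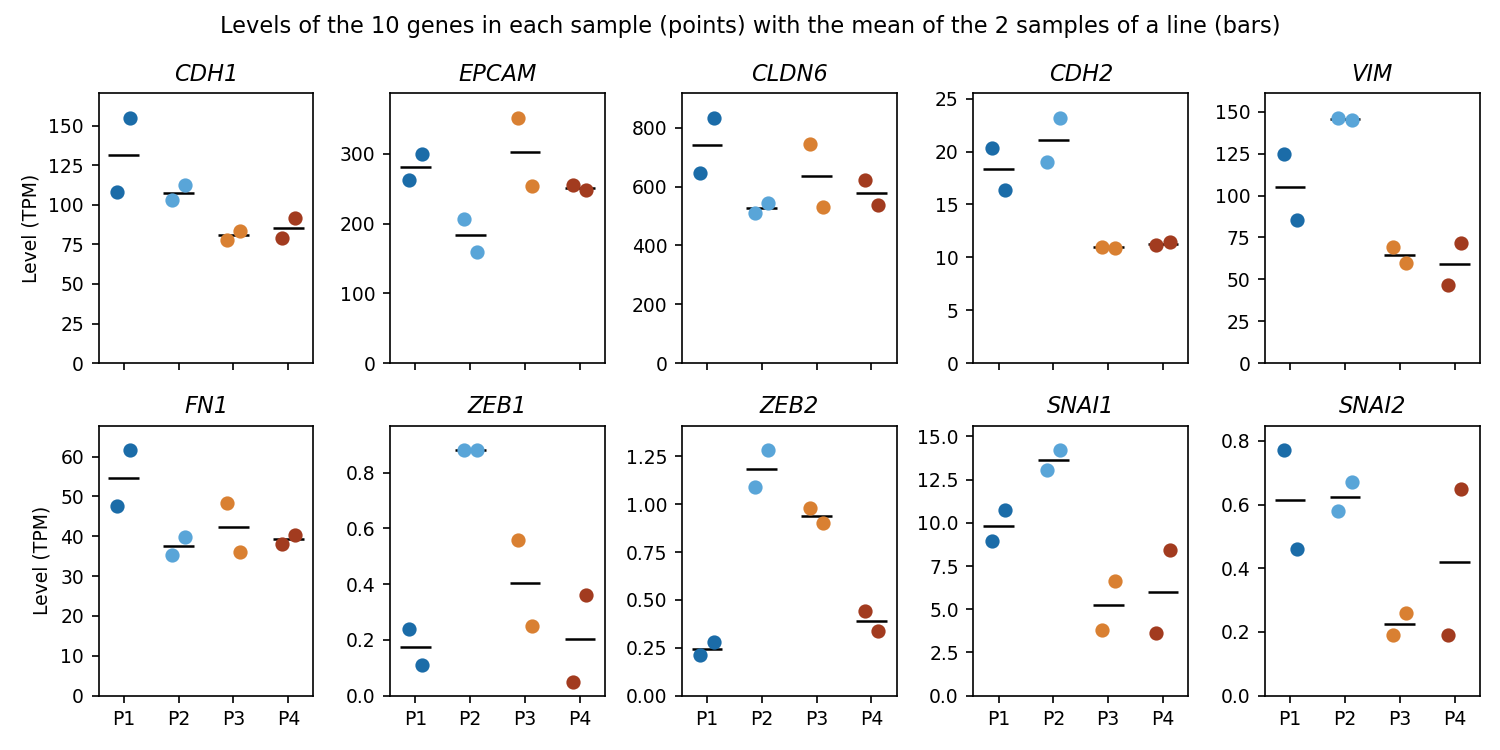
Level in TPM (vertical axes, from 0 and scaled to each gene) of the 10 genes in the 2 samples of each hESC line (points, replicate 1 at the left) with their mean (bars). CDH1, CDH2, VIM and SNAI1 were lower in every P3 and P4 sample than in any P1 or P2 sample, whereas EPCAM, CLDN6 and FN1 overlapped, and ZEB1, ZEB2 and SNAI2 lay under 1.3 TPM.

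VIM encodes vimentin, the intermediate filament protein of mesenchymal cells. Its level was 125 and 85.5 TPM in P1, 146 and 145 in P2, 69.4 and 60.1 in P3 and 46.9 and 71.5 in P4 hESCs. Every late sample lay below every early one, with P2 highest, and the early and late means were 125 ± 28.4 and 62.0 ± 11.2 TPM (SD, n = 4 each). The log2 fold change of the counts was -0.86 (SE 0.19, edgeR FDR 0.0233), or 1.81-fold lower. Without P3-1 VIM met the call (log2 fold change -1.05, edgeR FDR 0.0061). Without the 3 libraries of high mitochondrial share it was -1.09 (edgeR FDR 0.0249). Against P1 alone, the log2 fold change was 0.33 in P2, -0.54 in P3 and -0.83 in P4 (edgeR FDR 0.697, 0.162 and 0.066). The P3 value was -0.95 without P3-1 and -0.21 without P3-2. In the same samples the summed level of the fibroblast markers, mostly COL1A1 and COL1A2, was lower too, as given above. Its part in the VIM difference was not tested. In bulk RNA, fewer cells of a type and less RNA per cell cannot be told apart.

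CDH2 encodes N-cadherin, which joins mesenchymal and neural cells. It measured 20.4 and 16.4 TPM in P1, 19.0 and 23.2 in P2, 11.02 and 10.85 in P3 and 11.2 and 11.4 in P4 hESCs. The 4 late samples lay close together below the whole early range, at 11.1 ± 0.244 against 19.7 ± 2.82 TPM (SD, n = 4 each). In CPM the late samples were less close, from 30.6 to 42.6, below the early ones at 49.8 to 58.8. On the counts the difference was 1.46-fold (log2 fold change -0.55, SE 0.14, edgeR FDR 0.0385), and P4 and P3 differed by 0.03 on the log2 scale (edgeR FDR 0.965). Without the 3 libraries of high mitochondrial share the log2 fold change was -0.69 (edgeR FDR 0.0757). Over all alternatives it ran from -0.76 to -0.47 and kept its sign. The FDR of these edgeR, DESeq2 and limma fits ran from 0.0057 to 0.104.

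SNAI1 encodes Snail, a repressor of CDH1 that is switched on early in a transition. Its levels were 8.94 and 10.7 TPM in P1, 13.1 and 14.2 in P2, 3.80 and 6.64 in P3 and 3.62 and 8.42 in P4 hESCs. The early samples all lay above the late ones, and replicates of a late line were less alike than those of an early line. The means were 11.7 ± 2.36 TPM early and 5.62 ± 2.32 TPM late (SD, n = 4 each). The log2 fold change was -0.99 (SE 0.23, edgeR FDR 0.0275), close to the fold minimum, on 150 to 613 counts a sample. Without the 3 libraries of high mitochondrial share it was -0.70 (edgeR FDR 0.226), and limma on log2(TPM + 1) gave an FDR of 0.0675. Over all alternatives it ran from -1.16 to -0.70 and kept its sign. The FDR of these edgeR, DESeq2 and limma fits ran from 0.000943 to 0.226.

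The complete separation of early from late samples was not rare among the genes tested. In TPM, 4 of the 10 genes (CDH1, CDH2, VIM and SNAI1) were lower in every late sample than in any early one, against 9.13% of all genes. For each of the 4 the exact two-sided permutation test gave p = 0.0286, the smallest that 4 samples against 4 allow. That p follows from the separation and adds nothing to it. The test also treats the samples of a line as independent, which the labels do not show. In CPM (library-scaled counts with TMM factors, not scaled for length) 3 of the 10 were separated, against 9.19% of all genes, and CDH1 was not among them.

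The promoters of VIM and CDH2 are shown because both genes were lower in the late hESCs on either scale. They are the 250 bases upstream of the first start that RefSeq gives each gene (GRCh38.p14), written 5′ to 3′ on the strand of the gene, and GC boxes (GGGCGG or its reverse CCGCCC) are in capitals.
VIM, chr10:17227991-17228240, plus strand: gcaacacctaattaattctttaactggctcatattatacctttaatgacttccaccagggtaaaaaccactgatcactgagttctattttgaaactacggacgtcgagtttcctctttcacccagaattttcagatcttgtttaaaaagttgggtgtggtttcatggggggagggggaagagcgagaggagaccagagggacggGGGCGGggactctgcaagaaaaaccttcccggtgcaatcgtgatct
CDH2, chr18:28177131-28177380, minus strand: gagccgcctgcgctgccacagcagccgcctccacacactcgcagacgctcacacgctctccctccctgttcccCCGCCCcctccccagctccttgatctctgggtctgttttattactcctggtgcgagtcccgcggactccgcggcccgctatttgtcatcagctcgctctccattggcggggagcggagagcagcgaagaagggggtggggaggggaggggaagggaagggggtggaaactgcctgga
Each window held 1 GC box, which 42.6% of the 35116 RefSeq promoter windows of this length also held. The VIM window was 46.0% G or C with 8 CpG dinucleotides, and the CDH2 window 66.0% with 17. Neither held the E-box CAGGTG or its reverse CACCTG, which SNAI and ZEB factors bind and which 17.5% of all windows held. The set of RefSeq windows used here held 13 for 6 of the 10 genes (VIM, CDH2, FN1, CLDN6, ZEB1 and ZEB2). It held none for CDH1, EPCAM, SNAI1 and SNAI2, so their promoters were not searched, although SNAI1 was also lower on either scale. Among them the E-box was found in 2 of the 7 ZEB1 windows and in no window of the other genes.

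CDH1 encodes E-cadherin, the adhesion molecule of the epithelial junction. Its level was 108 and 155 TPM in P1, 103 and 112 in P2, 77.6 and 83.7 in P3 and 79.2 and 91.9 in P4 hESCs, so that the early and late means were 119 ± 23.9 and 83.1 ± 6.41 TPM (SD, n = 4 each). On the CPM scale P3-1, at 386, stood above P1-1, P2-1 and P2-2, at 373, 313 and 325, and the early and late ranges overlapped. The log2 fold change of the counts was -0.36 (SE 0.23, edgeR FDR 0.344). It was -0.67 in P2, -0.58 in P3 and -0.74 in P4 against P1 (edgeR FDR 0.499, 0.151 and 0.113), and P1-2, at 642 CPM, was the highest sample. Without P1-2 the fold change between late and early hESCs moved to -0.06 (edgeR FDR 0.842).

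EPCAM, a surface adhesion protein of epithelia and of pluripotent cells, was at 262 and 300 TPM in P1, 207 and 159 in P2, 351 and 253 in P3 and 256 and 247 in P4 hESCs. P2 had the lowest values and lay below every sample of the other lines. The log2 fold change was 0.46 late against early (SE 0.30, edgeR FDR 0.353, and 0.20 without P3-1 to 0.71 without P1-2) and -0.89 in P2 against P1 (SE 0.31, edgeR FDR 0.476).

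CLDN6 encodes claudin-6, a tight junction protein of early embryonic epithelia, and it had the highest level of the 10 genes per length. It was at 647 and 833 TPM in P1, 512 and 543 in P2, 744 and 529 in P3 and 621 and 538 in P4 hESCs. Both P1 samples lay above those of P2 and P4, but the early and late ranges overlapped, and the log2 fold change between late and early hESCs was 0.09 (SE 0.27, edgeR FDR 0.863), with a sign that depended on the setting.

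FN1, which encodes fibronectin, was at 47.6 and 61.5 TPM in P1, 35.3 and 39.9 in P2, 48.4 and 36.2 in P3 and 38.1 and 40.4 in P4 hESCs. The samples overlapped and the log2 fold change was -0.15 (SE 0.21, edgeR FDR 0.684). FN1 is transcribed in many isoforms, and the mean transcript length that RSEM weighted by isoform abundance ran from 3520 bases in P4-1 to 6283 bases in P2-1, the widest span in bases of the 10 genes. VIM varied least among those that were not constant in length, from 1840 to 1860 bases.

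The balance of the cadherins is often read as the side of a transition on which cells lie. CDH1 exceeded CDH2 in TPM in every sample. The ratio was 5.30 and 9.43 in P1, 5.40 and 4.84 in P2, 7.04 and 7.72 in P3 and 7.07 and 8.05 in P4 hESCs. The P2 samples and P1-1 lay below the late range and P1-2 above it, so early and late samples overlapped. VIM exceeded CDH1 in P1-1, P2-1 and P2-2, where the ratio of CDH1 to VIM was 0.863, 0.702 and 0.773, and CDH1 was the higher in the other samples at 1.12 to 1.81.

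**Figure D2:**
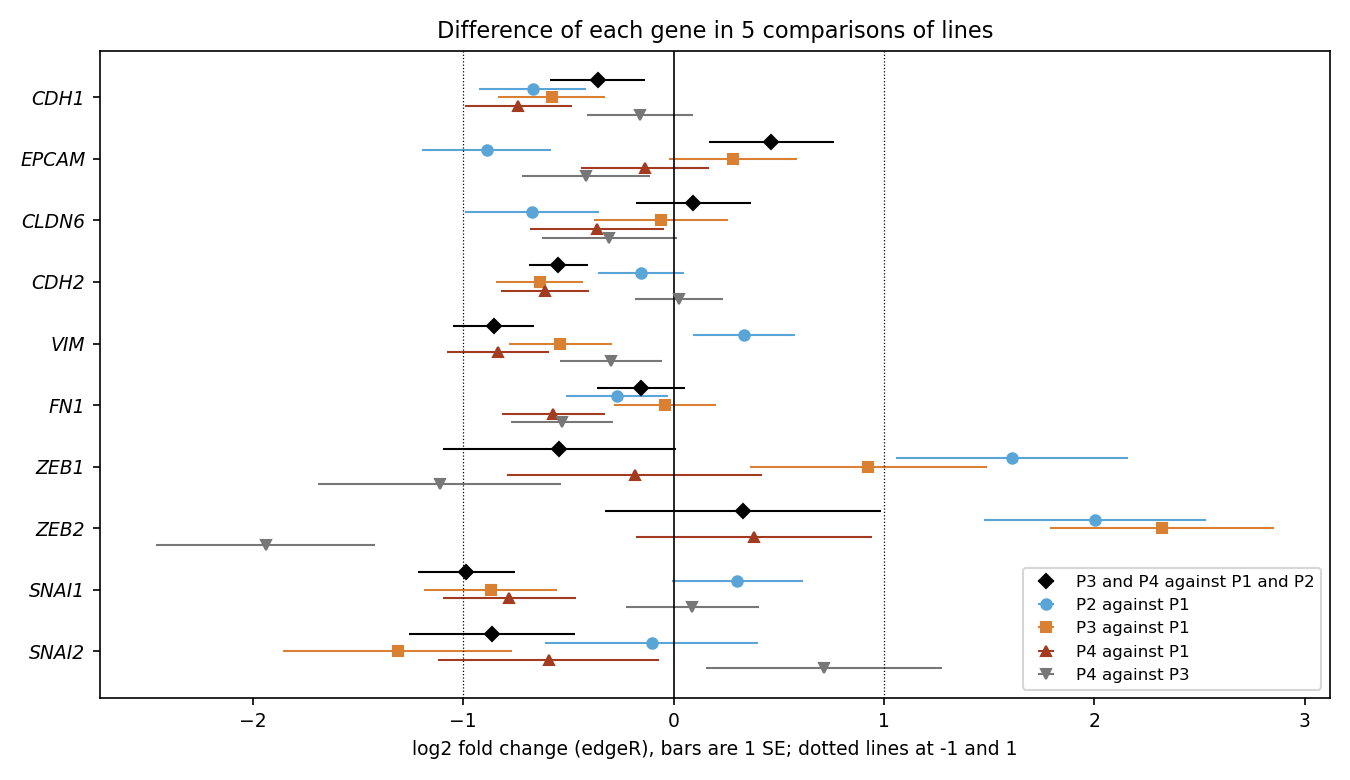
Log2 fold change (horizontal axis, edgeR, bars are 1 SE) of each gene in 5 comparisons (symbols and colours). VIM, SNAI1 and CDH2 lay below 0 in P3 and P4 against P1 and P2, CLDN6 lay near 0, and ZEB2 was at 2.32 in P3 against P1 and -1.94 in P4 against P3.

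ZEB1, ZEB2 and SNAI2, the repressors that go with a full transition, were expressed at under 1.3 TPM in every sample. ZEB2 was at 0.21 and 0.28 TPM in P1, 1.09 and 1.28 in P2, 0.98 and 0.90 in P3 and 0.44 and 0.34 in P4 hESCs. The 4 lines did not overlap in TPM, in the order P1, P4, P3 and P2, but the values rested on 14 to 132 counts. In CPM neither held, as P4 (1.03 and 0.471) overlapped P1 (0.458 and 0.693), and P3 (4.17 and 1.62) spanned P2 (2.41 and 2.21). Its log2 fold change was 2.00 in P2 against P1 (SE 0.53, edgeR FDR 0.338), 2.32 in P3 against P1 (SE 0.53, edgeR FDR 0.0156) and -1.94 in P4 against P3 (SE 0.52, edgeR FDR 0.0642). In P4 against P1 it was 0.38 (SE 0.56, edgeR FDR 0.740). ZEB2 met the call in P3 against P1 with DESeq2 (FDR 0.00121), without P3-2 (edgeR FDR 0.00467), without the filter on low counts (edgeR FDR 7.66e-06) and with mitochondrial share as a covariate (edgeR FDR 0.00234). Without P3-1, which held 132 of its counts, the log2 fold change was 1.49 (edgeR FDR 0.12).

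ZEB1 was at 0.24 and 0.11 TPM in P1, 0.88 and 0.88 in P2, 0.56 and 0.25 in P3 and 0.05 and 0.36 in P4 hESCs. P2 lay above every other sample, and the log2 fold change of P2 against P1 was 1.61 (SE 0.55, edgeR FDR 0.476). SNAI2, which encodes Slug, was at 0.77 and 0.46 TPM in P1, 0.58 and 0.67 in P2, 0.19 and 0.26 in P3 and 0.19 and 0.65 in P4 hESCs. Only P4-2 among the late samples reached the early range. The log2 fold change of SNAI2 between late and early hESCs was -0.86 (SE 0.39, edgeR FDR 0.196) on 10 to 41 counts a sample.

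The sequences of the miR-200 family are shown with its sites in ZEB1 and ZEB2, since these factors are known for this pairing and no microRNA was measured here. RefSeq gives the mature forms below, with the seed (bases 2 to 8) in capitals.
miR-200b-3p: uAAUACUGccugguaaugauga
miR-200c-3p: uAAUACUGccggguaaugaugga
miR-429: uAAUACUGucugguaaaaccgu
miR-200a-3p: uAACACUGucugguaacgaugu
miR-141-3p: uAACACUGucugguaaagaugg
The first 3 share the seed AAUACUG, which pairs with CAGTATT, and the other 2 share AACACUG, which pairs with CAGTGTT. In the 3′ UTR of 1 GENCODE release 29 transcript a gene (the longest coding sequence), ZEB1 held 6 CAGTATT and 3 CAGTGTT in 2549 bases, and ZEB2 held 5 and 4 in 5370 bases. Of 19145 protein-coding genes, 5 (0.0261%) held 9 or more such sites, and 24.9% held any. FN1 held 2 and SNAI2 held 1, and the other 6 genes held none. These counts were not scaled for length, and the median 3′ UTR of all those genes was 800 bases. Per kilobase ZEB1 held 3.53 sites, FN1 1.82, ZEB2 1.68 and SNAI2 0.831. The first CAGTATT of each 3′ UTR, in capitals, is given with its surroundings.
ZEB1, site at bases 369 to 375 of the 3′ UTR: ttttatcttatCAGTATTat
ZEB2, site at bases 392 to 398 of the 3′ UTR: ctaccatacatCAGTATTtt
A seed match is a description of the sequence and not a measured target.

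The single lines gave the same 10 genes fewer samples. P2 against P1 addressed the first step in passage, and none of the 10 was called, against 0% of all genes by edgeR. At an unadjusted p under 0.05 there were 4 of the 10 (CDH1, EPCAM, ZEB1 and ZEB2) and 1782 of all genes (9.14%), while DESeq2 called 40 genes and limma 1, none of them among the 10. In P3 against P1 none of the 10 was called, against 3.93% of all genes, and 6 had an unadjusted p under 0.05, beside 29.5% of all genes. In P4 against P1 none was called, against 2.11%, and 5 had such a p, beside 21.5%. P4 against P3, the late lines alone, had 0.815% of all genes called and none of the 10, with 2 (ZEB2 and FN1) at an unadjusted p under 0.05, beside 19.2% of all genes. DESeq2 called ZEB2 in P3 against P1 and no other of the 10 in these 3 comparisons, and limma called none. The comparisons with P1 share its 2 samples.

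Within P1, P3 and P4, the epithelial adhesion genes, CDH2 and ZEB2 were higher in CPM in the library of higher mitochondrial share. Between the 2 libraries of P1, P3 and P4, the library with the higher share had the higher CPM of CDH1 (1.72, 1.32 and 1.15 times), EPCAM (1.32, 1.95 and 1.52 times), CLDN6 (1.54, 2.03 and 1.43 times), CDH2 (1.07, 1.39 and 1.16 times) and ZEB2 (1.51, 2.58 and 2.19 times). These 5 of the 10 genes were higher in all 3 lines, against 13.9% of all genes tested, and none of the 10 was lower in all 3. In TPM, EPCAM, CLDN6 and ZEB2 were again higher in all 3 lines, while CDH1 and CDH2 were higher in 1. VIM was lower in the library of higher share in P1 and P4 and 1.66 times higher in P3. With the share as a covariate, chosen after seeing the data, none of the 10 was called between late and early hESCs. The part of the share in these differences was not tested.

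**Figure D3:**
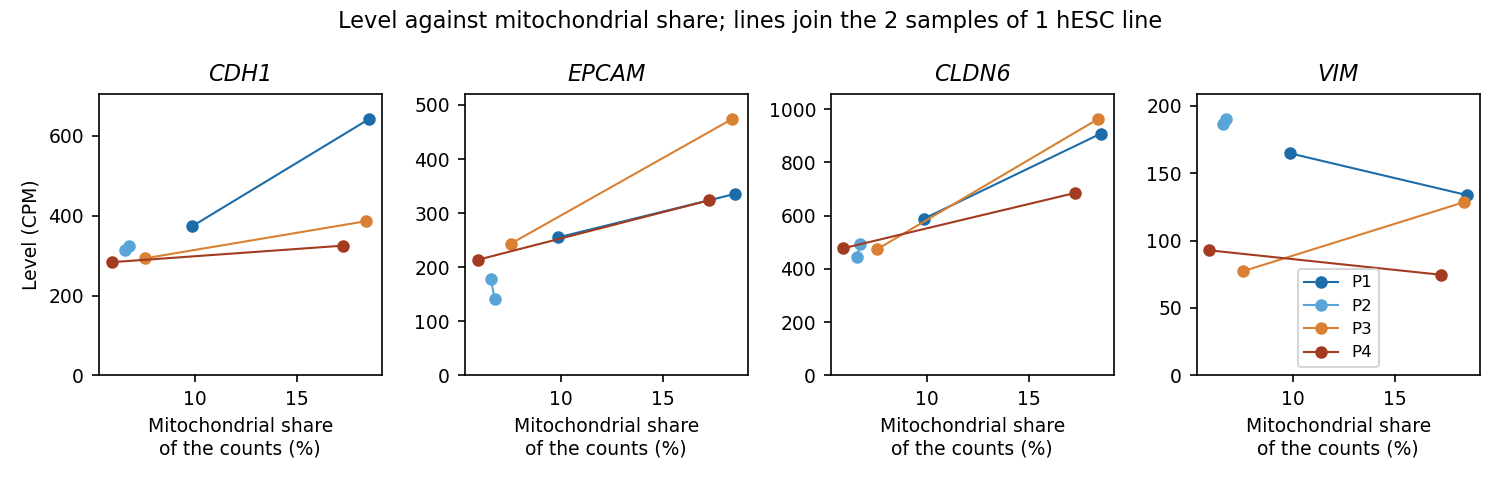
Level in CPM (vertical axes, from 0) of CDH1, EPCAM, CLDN6 and VIM against the share of counts from mitochondrial genes (horizontal axes, percent), with a line joining the 2 samples of each hESC line. CDH1, EPCAM and CLDN6 slope up in P1, P3 and P4, whereas VIM slopes down in P1 and P4 and up in P3, and the 2 samples of P2 have nearly the same share.

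The rest of both programs was described from 6 gene lists. No gene was called between late and early hESCs in the lists of epithelial junctions and polarity (0 of 26), keratins and epithelial surface proteins (0 of 18), epithelial regulators (0 of 10 tested), other transition transcription factors (0 of 8 tested) and TGF-beta signaling (0 of 17), beside 2.2% of all genes. Their medians lay between 0.03 and 0.11 on the log2 scale, beside 0.01 over all genes. In these 5 lists 6 genes were under an FDR of 0.05 in edgeR, beside 7.54% of all genes. In the 3 epithelial lists they were CLDN4, a claudin, at 1.37 (FDR 0.0103), JUP, which encodes plakoglobin, at 0.76 (FDR 0.0073), KRT8, a keratin of simple epithelia, at 0.79 (FDR 0.0249), and ESRP1, an epithelial splicing factor, at 0.59 (FDR 0.0248). The other two were SMAD3, a signal transducer of TGF-beta, at 0.60 (FDR 0.0394), and TWIST2, a basic helix-loop-helix factor (FDR 0.0323). TWIST2 was at 0.86 to 1.79 TPM early, 0.31 and 0.15 TPM in P3 and 0 in both P4 samples, with 31 to 61, 13 and 5, and 0 expected counts. These 6 were named after their values were seen. The ranges of KRT8 and CLDN4 are descriptions only, as the share of all genes higher in every late sample is not given here. KRT8 was at 176 to 318 TPM in the early and 393 to 424 TPM in the late samples. CLDN4 was at 14.3 to 22.0 TPM early and 29.6 to 71.7 TPM late, and it was called in P4 against P1 (log2 fold change 1.65, edgeR FDR 0.00393). In that comparison TWIST2 was called lower (edgeR FDR 0.00201), as were the 5 mesenchymal effectors NT5E, TNC, TAGLN, AXL and TPM1, beside 2.11% of all genes.

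Of 34 mesenchymal effectors tested, 5 were called lower and 1 higher, against 2.2% of all genes called and 1.14% called lower. The median of the 34 was -0.31, with 24 below 0 and 10 above, beside 0.01 over all genes. The called genes that fell most were NT5E, an ecto-nucleotidase of mesenchymal stromal cells, TNC, the matrix protein tenascin-C, and TAGLN, the actin-binding protein transgelin. NT5E was at 0.83 to 1.26 TPM early and 0.10 to 0.34 TPM late (log2 fold change -2.17, SE 0.29, edgeR FDR 0.00136). TNC was at 5.78 to 7.22 TPM early and 0.96 to 1.66 TPM late (log2 fold change -2.12, SE 0.25, edgeR FDR 0.000716). TAGLN was at 170 to 414 TPM early and 70.4 to 154 TPM late (log2 fold change -1.62, SE 0.25, edgeR FDR 0.00296). None of the 3 overlapped between early and late samples, beside 9.13% of all genes lower in every late sample in TPM. They were chosen for their fall in this same comparison, so the separation is no further support. AXL, a receptor tyrosine kinase, and TPM1, a tropomyosin, were also called lower, at -1.25 and -1.04, and are named after their values were seen. The gene called higher was MMP9, a gelatinase, at 1.36 to 2.19 TPM early and 3.14 to 6.85 TPM late (log2 fold change 1.82, SE 0.30, edgeR FDR 0.00476). ITGB1, an integrin subunit, was not called but was at 147 to 185 TPM early and 238 to 274 TPM late. It too is named after its values were seen. The share of all genes higher in every late sample is not given here, so the ranges of MMP9 and ITGB1 are descriptions only.

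Without the 3 libraries of high mitochondrial share none of the 34 was called by edgeR, with 15 at an unadjusted p under 0.05 beside 17.7% of all genes in that fit, and 61 genes were called in all. All 6 kept their direction there, with log2 fold changes of -2.21 for NT5E, -2.06 for TNC, -1.59 for TAGLN, -1.33 for AXL, -0.91 for TPM1 and 1.50 for MMP9. The count was 3 (TNC, NT5E and AXL) without P2-1, without P2-2, without P3-1 or without P4-1, and 3 (TNC, TPM1 and AXL) with limma on log2(TPM + 1). The summed level of the fibroblast markers was lower in the late samples, as given above. It came mostly from COL1A1 and COL1A2, which are also in the list of mesenchymal effectors. Its part in these differences was not tested.

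**Figure D4:**
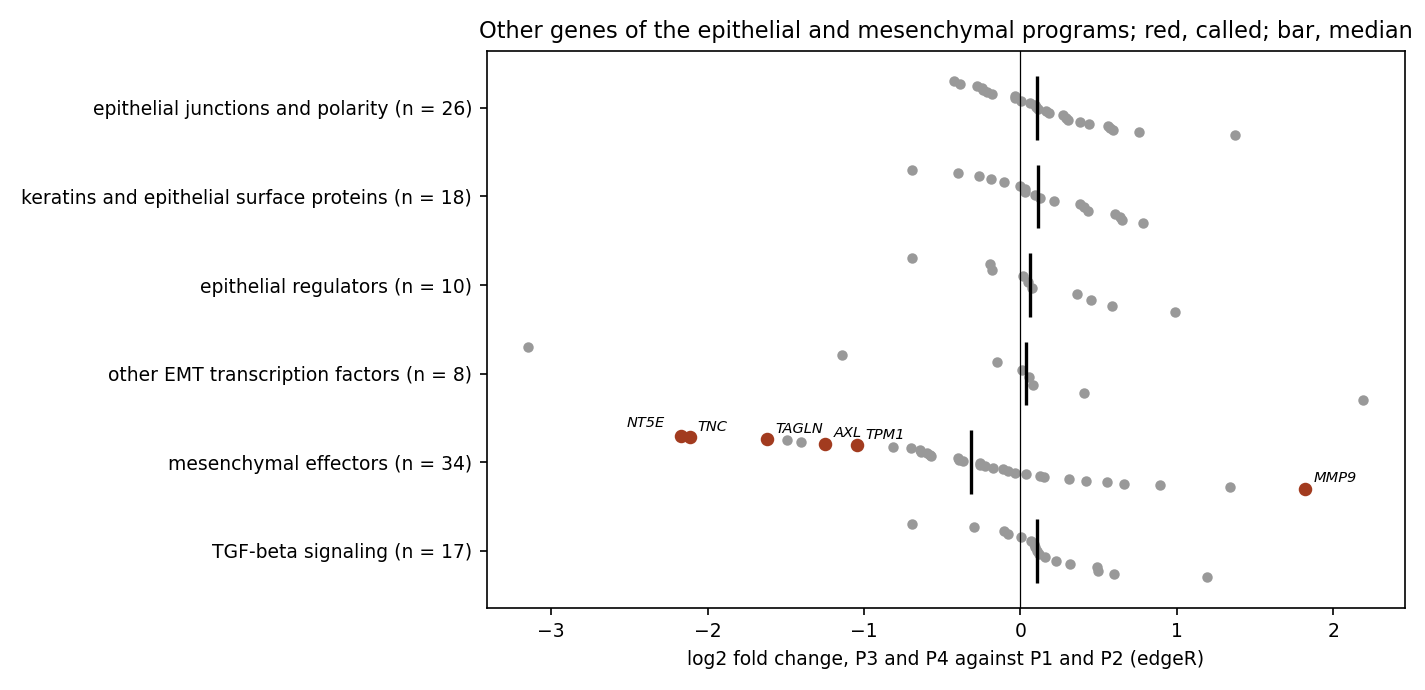
Log2 fold change of P3 and P4 against P1 and P2 (horizontal axis, edgeR) for the genes of 6 lists (points, sorted within a list), with genes called in red and the median of a list as a bar. The called genes (5 lower, 1 higher) all belong to the mesenchymal effectors, whose median was -0.31, while the other 5 medians lay between 0.03 and 0.11.

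The genes most like VIM, SNAI1 and CDH2 in log2 CPM over the 8 samples were sought among 11900 genes with a mean of at least 5 CPM. Closest to VIM were CRABP1, a retinoic acid-binding protein (Pearson's r 0.972), LTA4H (0.971) and PCBP3 (0.970). SNAI1 was followed by HIP1 (0.976), ADCY1, an adenylyl cyclase (0.973), and EGR2, an early response transcription factor (0.966). CDH2 was followed by 3 adhesion genes, the cadherin CDH4 (0.992) and the immunoglobulin-type adhesion molecules CADM4 (0.983) and CADM1 (0.972). CDH4 was at 24.8 to 36.5 CPM in the early and 9.26 to 16.1 CPM in the late samples. These r are descriptions over 8 shared libraries that split into early and late samples.

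The genes lie in GRCh38 (GENCODE release 29) at chr16:68737225-68835548 (CDH1), chr2:47345158-47387601 (EPCAM), chr16:3014712-3020071 (CLDN6), chr18:27950966-28177446 (CDH2), chr10:17228259-17237593 (VIM), chr2:215360440-215436172 (FN1), chr10:31318495-31529814 (ZEB1), chr2:144364364-144524583 (ZEB2) and chr20:49982999-49988886 (SNAI1). Exons of CDH1, CDH2, CLDN6, VIM, ZEB1 and ZEB2 overlap a gene on the opposite strand, TNFRSF12A in the case of CLDN6 and antisense or other noncoding genes for the rest. The setting for strand in the counting was not given in the sources used here, so reads from such a pair may not have been told apart. The expected count of VIM was fractional in all 8 samples, which means that some of its reads were shared out with other genes, while those of CDH1, EPCAM, FN1, SNAI1 and SNAI2 were whole in every sample.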

How the data were processed

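RNA-seq (TruSeq Stranded mRNA kit) of 8 H9 samples was analysed, 2 each of P1, P2, P3 and P4 hESCs. For each sample the authors deposited a gene table with expected counts and TPM from RSEM, and its isoform-weighted transcript length. The submitters' processing notes name FastQC, Trim Galore, STAR 2.7.3a, RSEM 1.3.3 and GRCh38, and the annotation and counting strand are not given in the sources used here. The deposited expected counts were rounded to whole numbers, filtered with filterByExpr by line (19499 of 60675 genes), scaled with TMM factors and tested with edgeR 4.0.16 (glmQLFit, glmQLFTest, R 4.3.3), with Benjamini-Hochberg adjustment over all genes tested. P3 and P4 were compared with P1 and P2 as 2 groups of 4, and single lines in a model of 4 groups. SE is the log2 fold change divided by the root of F. The deposited TPM values were tested for each of the 10 genes with an exact two-sided permutation test (SciPy 1.17.1). DESeq2 1.42.0, limma 3.58.1 on log2(TPM + 1), other filters, scalings, samples and covariates were alternatives. The model was tested on simulated data with known changes. Motifs were counted with regular expressions in RefSeq and GENCODE release 29 sequences.

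Named genes were the 10, at most 3 higher and 3 lower called genes of each list, and the 3 genes most correlated with each of the 3 genes of lowest p. The genes and lists were chosen with earlier results of these data known.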

Additional observations from a re-analysis of the deposited data

Results flagged for a closer look

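In 20 groups of 4 samples (each of the 10 genes, early and late, log2 CPM), 2 held a sample whose gap to its nearest neighbour, as a share of the whole range, was above the 95% critical value of Dixon's test, where chance gives about 1. FN1 in P1-2, at 243.4 CPM, stood above the other early samples at 166 to 177 CPM, with a gap of 0.830 of the range. P1-2 was also the early sample of larger end gap for CDH1 (0.756), CLDN6 (0.610), VIM (0.593), CDH2, EPCAM and ZEB1. P1-1 was that sample for ZEB2, SNAI1 and SNAI2. Among late samples P3-1 was it for CDH1, EPCAM, CLDN6, VIM, FN1 and ZEB2. The groups share libraries, so they are not independent. SNAI2 in P4-2, at 0.9756 CPM or 29 counts, stood above the other late samples, which had 10 to 14 counts, with a gap of 0.862 of the range.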

How the results depend on the processing

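The number of genes called depended on the setting. P3 and P4 against P1 and P2 gave 429 calls, with 907 by DESeq2, 738 without the filter, 242 by limma on log2(TPM + 1), 919 in the model of 4 groups, 61 without the 3 libraries of high mitochondrial share (5 samples remained), 1470 with an FDR under 0.05 and no fold minimum, and 227 to 456 when each sample was left out. P2 against P1 gave 0 calls, with 40 by DESeq2, 273 without the filter, 1 by limma, 35 with only the 4 samples compared, 1 with the looser FDR and 0 to 5 when each sample was left out. P3 against P1 gave 767, with 1401, 1779 and 201 by DESeq2, without the filter and by limma, 2435 with the looser FDR and 153 to 841 when each sample was left out. P4 against P1 gave 412, with 875, 1191, 171, 1159 and 123 to 540 in the same order, and P4 against P3 gave 159, with 600, 900, 74, 646 and 69 to 183. The share of higher calls moved by over 10 percentage points in P3 and P4 against P1 and P2, from 48.3% to 37.6% by limma and 37.4% in the model of 4 groups, and without P1 replicate 1 from 33.1% to 22.3% in P3 against P1 and from 45.1% to 31.9% in P4 against P1. The median of all genes moved by over 0.1 only in P2 against P1 by limma, to 0.13. The cause of these moves was not tested.

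Of the 10 genes, 0 were called in each comparison. Calls under an alternative were VIM without P3 replicate 1 and 3 genes (VIM, SNAI1 and CDH2) with the looser FDR in P3 and P4 against P1 and P2, ZEB2 in P3 against P1 (1 call each by DESeq2, without the filter, with the covariate, with the looser FDR and without P3 replicate 2), and ZEB2 without the filter in P2 against P1 and P4 against P3. Mesenchymal effectors called were 6, with 3 by limma, 0 without the 3 libraries of high mitochondrial share and 3 to 6 when each sample was left out. Same-numbered samples of different lines did not deviate together (r -0.09 to 0.14 over pairs of lines), and with the replicate block the 5 comparisons called 343, 0, 798, 387 and 157 genes and none of the 10.

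Of 968 log2 fold changes of single genes, 893 kept direction and call, 11 gained the call, 27 lost it and 37 changed sign. These counts include the looser FDR, which reuses the main fold change and so cannot change its sign. None of the epithelial and mesenchymal state genes was called in the main fits, so for them keeping the call meant staying uncalled. All 27 losses fell on the called mesenchymal effectors. They were 9 of 18 alternatives for MMP9, 8 for TPM1, 6 for TAGLN, 2 for NT5E and 1 each for TNC and AXL. The sign changed by limma for CLDN6 (-0.047) and ZEB2 (-0.0060) in P3 and P4 against P1 and P2, CDH2 (0.19) and SNAI2 (0.015) in P2 against P1, ZEB1 (0.027) in P4 against P1 and CDH1 (0.081) in P4 against P3. It changed with the covariate for CLDN6 (-0.046) in P3 and P4 against P1 and P2, CDH2 (0.041) in P2 against P1 and EPCAM (0.012) in P4 against P1. Without the 3 libraries it changed for CLDN6 (-0.11) and ZEB2 (-0.69). When each sample was left out, values on both sides of 0 were found in P3 and P4 against P1 and P2 for CLDN6 (-0.16 to 0.35) and ZEB2 (-0.47 to 0.70), and in P2 against P1 for FN1 (-0.48 to 0.012) and SNAI2 (-0.34 to 0.20). They were found in P3 against P1 for EPCAM (-0.27 to 0.69), CLDN6 (-0.66 to 0.37) and FN1 (-0.34 to 0.24), and in P4 against P1 for EPCAM (-0.47 to 0.13), ZEB1 (-1.41 to 0.46) and ZEB2 (-0.28 to 0.84). In P4 against P3 they were found for CDH1 (-0.35 to 0.049), CDH2 (-0.20 to 0.28), EPCAM (-0.83 to 0.14), CLDN6 (-0.73 to 0.29), VIM (-0.62 to 0.11), SNAI1 (-0.45 to 0.47) and SNAI2 (-0.22 to 1.27). Without a change of sign, leaving out a sample moved CDH1 (-0.47 to -0.06), EPCAM (0.20 to 0.71), FN1 (-0.36 to -0.0073), ZEB1 (-0.90 to -0.23) and SNAI2 (-1.32 to -0.71) in P3 and P4 against P1 and P2 by over 1.5 times. Counts of 5 to 132 a sample limited ZEB1, ZEB2 and SNAI2. The covariate and the set of 5 libraries were chosen after seeing the data.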
